A study of Mus musculus with 12 samples.

Results

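The MHC class I presentation genes H2-K1, H2-D1, H2-T23, B2m, Tap1, Tap2, Tapbp, Psmb8, Psmb9 and Nlrc5 were examined in total RNA from bone marrow-derived macrophages (BMDMs), macrophages grown from mouse marrow in culture. The genes were chosen by symbol, each symbol being matched to its Ensembl identifier through a GENCODE annotation of GRCm38. All 10 were found among the 48526 genes of the count table, and all 10 were among the 15523 genes kept by the filter on low counts. Their libraries came from mice homozygous for HSS9 KO, which is a deletion upstream of Tnf at the enhancer HSS9 (also called TNF-9), and from WT mice labelled as littermate controls. Cells of each genotype were given PBS for 6 hr (UT, called untreated here) or exposed for 6 hr to LPS (lipopolysaccharide from the outer membrane of bacteria). The 4 groups, WT UT, WT LPS, KO UT and KO LPS, had 3 libraries each.

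By the methods of the study, the mice were males of 7 to 10 weeks and the marrow cells had spent 6 d in medium conditioned by L929 cells before they were seeded. The deletion was germline and so not restricted to macrophages, and how many founder lines were used was not given in the sources used here. The KO mice were bred from homozygous pairs and C57BL/6 mice were purchased, while the labels name littermates, so a shared background of the genotypes is not assured. The labels also do not say whether the 3 libraries of a group came from separate mice, and p-values then measure the spread between these libraries, which may be technical. Total counts ran from 26154533 to 36423921 per library, and the 10 genes held 0.870% to 1.52% of them. Tnf, the gene near the deletion, stood at 15.3 ± 0.757 CPM in WT UT and 9.71 ± 0.727 in KO UT, and at 889.7 ± 57.4 in WT LPS and 432 ± 15.2 in KO LPS (CPM, counts relative to the scaled library size, SD, n = 3). All 8 macrophage markers were counted in every library, and their summed level was 27940 to 34417 CPM.

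MHC class I molecules display peptides from the inside of a cell to CD8 T cells and natural killer cells. Proteins are cut by the proteasome, the peptides are pumped into the endoplasmic reticulum by the TAP transporter, and tapasin helps to load them onto a heavy chain paired with beta-2 microglobulin. Macrophages carry these molecules at rest and are known to make more of them after interferon or microbial stimulation. NLRC5 is the transactivator that binds with RFX, CREB/ATF and NF-Y proteins at class I promoters.

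Of the 10 genes, 8 lie on chromosome 17, the chromosome of Tnf, in or beside the H2 complex. H2-D1 (ENSMUSG00000073411.11, GRCm38 chr17:35262730-35267499, plus strand) is the member nearest to Tnf, with its start 60.7 kb from the start of Tnf. H2-T23 (ENSMUSG00000067212.8, chr17:36029773-36032855, minus strand) lies 830.8 kb away on the same side. The other members of the complex lie between 998.5 and 1286.1 kb away on the opposite side. They are Tapbp (ENSMUSG00000024308.14, chr17:33915899-33929292, plus strand), H2-K1 (ENSMUSG00000061232.15, chr17:33996017-34000347, minus strand), Psmb9 (ENSMUSG00000096727.2, chr17:34181987-34187764, minus strand), Tap1 (ENSMUSG00000037321.17, chr17:34187553-34197225, plus strand), Psmb8 (ENSMUSG00000024338.14, chr17:34197721-34201454, plus strand) and Tap2 (ENSMUSG00000024339.12, chr17:34203527-34216321, plus strand). B2m (ENSMUSG00000060802.8, chr2:122147686-122153083, plus strand) and Nlrc5 (ENSMUSG00000074151.12, chr8:94434356-94527272, plus strand) lie elsewhere.

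The upstream sequences of H2-K1 and B2m, a heavy chain and its light chain, are shown because these promoters are textbook sites of class I control. RefSeq promoters (GRCm38.p6) matched 8 of the 10 genes by symbol, and the 250 bases before each start were searched on both strands for 5 motifs. Capitals mark matches to the ISRE core AANNGAAA, to GAS (TTCNNNGAA), to the NF-kappaB consensus, to the X2 core TGACG or to the CCAAT box.
H2-K1 (chr17:34000348-34000597, minus strand): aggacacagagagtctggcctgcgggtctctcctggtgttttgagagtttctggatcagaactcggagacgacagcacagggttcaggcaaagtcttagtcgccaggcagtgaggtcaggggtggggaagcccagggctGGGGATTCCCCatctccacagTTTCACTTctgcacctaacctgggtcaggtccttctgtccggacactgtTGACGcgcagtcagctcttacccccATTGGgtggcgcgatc
B2m (chr2:122147437-122147686, plus strand): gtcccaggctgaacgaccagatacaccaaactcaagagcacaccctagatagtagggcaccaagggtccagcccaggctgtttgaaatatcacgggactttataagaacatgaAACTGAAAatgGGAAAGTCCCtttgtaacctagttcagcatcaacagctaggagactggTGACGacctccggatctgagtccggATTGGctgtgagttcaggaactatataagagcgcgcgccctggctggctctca

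GENCODE placed 0 of the 250 bases of the H2-K1 window in exons of that gene and 1 of those of the B2m window in an exon of B2m. The windows of H2-D1, Psmb8 and Psmb9 lay wholly inside exons of longer transcripts of these genes and those of H2-T23 (154 bases) and Tapbp (146 bases) in part, so RefSeq and GENCODE place these starts differently.

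The H2-K1 and H2-D1 windows were identical at 170 of 190 aligned bases (89.5%), and each carried matches in the same order, from the NF-kappaB consensus through the ISRE core and the X2 core to a CCAAT box on the minus strand. B2m carried the ISRE core, the NF-kappaB consensus, the X2 core and a CCAAT box on the minus strand. By the RefSeq starts, Tap1 and Psmb9 run in opposite directions from either end of a stretch of 225 bases that holds an X2 core and a CCAAT box, while a longer GENCODE transcript of Psmb9 reaches across that stretch into Tap1. Over the 8 genes, the X2 core was found in 5, against 17.8% of all 32851 promoters of this length, and the CCAAT box in 7, against 33.8%. In both counts Tap1 and Psmb9 hold the same site, in the stretch between their starts, counted once for each gene. The ISRE core was found in 4, against 21.3%, the NF-kappaB consensus in 3, against 3.9%, and GAS in 1 (Psmb8), against 7.02%. H2-K1 and H2-D1, alike in sequence, were counted separately for every motif but GAS. The exact motif letters were chosen after these promoters had been seen, so the counts beside these shares are a description and not a test. In these windows no match overlapped a match of another motif, and the NF-kappaB matches in H2-K1 and H2-D1 are a pair shifted by a single base.

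The first question was how the pathway responded to LPS in each genotype. All 10 genes were higher after LPS in WT and in KO BMDMs, by a median log2 fold change of 2.08 in WT and 2.11 in KO, against a median over all genes tested of 0.05 and -0.06. Among all genes, 38.0% passed as higher and 35.3% as lower in WT, and 35.1% as higher and 37.7% as lower in KO (edgeR quasi-likelihood test, adjusted p below 0.05). With a log2 fold change above 1 also required, 9 members were called in each genotype, against 19.1% of all genes in WT and 17.7% in KO, and H2-D1 was the member below that minimum. For none of the 10 genes did the UT and LPS libraries of a genotype overlap, which also held for 74.8% of all genes in WT and 76.0% in KO. With upper-quartile scaling the medians of all genes moved to -0.14 and -0.24, and the shares higher and lower to 31.8% and 41.8% in WT and 29.5% and 45.2% in KO, and all 10 members still passed as higher. The order of the responses ran from the transporter and the transactivator, through the proteasome subunits and tapasin, to the heavy chains and beta-2 microglobulin. A bulk level cannot tell fewer cells of a type from less RNA per cell.

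**Figure D1:**
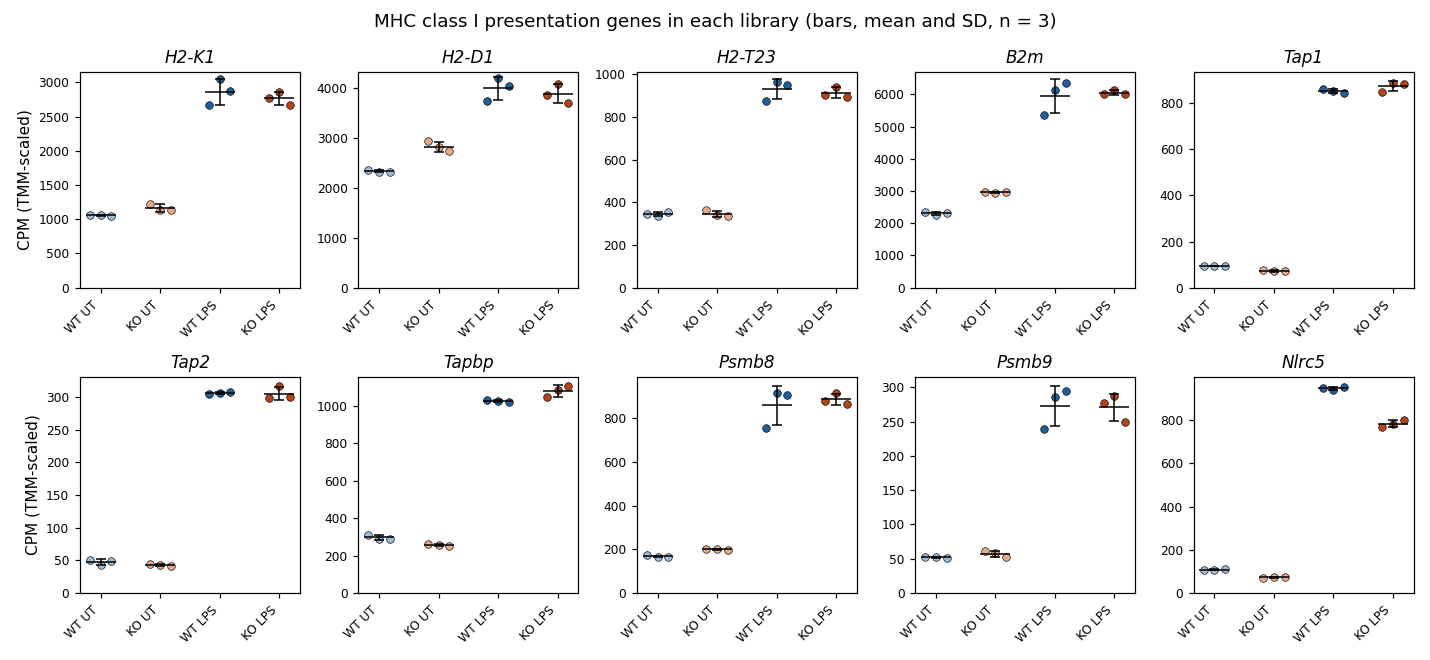
Level of each of the 10 genes in CPM (linear axis from 0) in each library of the 4 groups, with the mean and SD of 3 libraries. The LPS libraries lie above the UT libraries in every panel, and the KO LPS libraries of Nlrc5 (767.4 to 803.4 CPM) lie below those of WT LPS (940.9 to 954.0 CPM).

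Among the heavy chain genes, H2-K1, which encodes a classical chain that presents to CD8 T cells, stood at 1059.8, 1061 and 1049 CPM in WT UT and at 2665, 3047 and 2874 CPM in WT LPS. Its KO UT libraries were at 1227, 1128 and 1134 CPM and its KO LPS libraries at 2767, 2865 and 2665 CPM. H2-K1 rose 2.71-fold in WT (log2 fold change 1.44, SE 0.05, adjusted p = 3.04e-16) and 2.38-fold in KO (1.25, SE 0.05, adjusted p = 3.58e-15). H2-T23 encodes Qa-1, a nonclassical chain that is a ligand of the inhibitory receptor CD94/NKG2A on natural killer cells. It ranged from 336.9 to 356.6 CPM in WT UT, 337.7 to 362.2 in KO UT, 877.3 to 966.0 in WT LPS and 895.5 to 943.0 in KO LPS. Its response was nearly of one size in the genotypes, at 2.69-fold in WT (1.43, SE 0.05) and 2.64-fold in KO (1.40, SE 0.05).

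H2-D1, the other classical chain, responded least. It was at 2361, 2323 and 2327 CPM in WT UT and at 3756, 4216 and 4043 CPM in WT LPS. The KO UT libraries held 2936, 2822 and 2736 CPM, above each WT UT library, and the KO LPS libraries held 3868, 4091 and 3714 CPM. These overlapped the WT LPS values, and KO LPS replicate 3 lay below the lowest of them. The rise was 1.71-fold in WT (log2 fold change 0.78, SE 0.05, adjusted p = 5.50e-12) and 1.37-fold in KO (0.46, SE 0.05, adjusted p = 3.52e-08).

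B2m, the invariant light chain of every class I molecule, held the highest count of the 10 genes after LPS, between 135049 and 164412 counts per library. It was at 2344, 2256 and 2315 CPM in WT UT, at 2956, 2932 and 2981 CPM in KO UT, at 5358, 6149 and 6366 CPM in WT LPS and at 6010.3, 6139.8 and 6016 CPM in KO LPS. The untreated KO libraries again lay above those of WT, and the KO LPS libraries lay within the wider range of WT LPS. B2m rose 2.58-fold in WT (log2 fold change 1.37, SE 0.05, adjusted p = 4.80e-16) and 2.05-fold in KO (1.03, SE 0.05, adjusted p = 6.67e-14).

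Tap1 and Tap2 encode the partner chains of the peptide transporter. Tap1 was at 95.3, 93.0 and 92.5 CPM in WT UT, at 75.0, 71.6 and 70.6 CPM in KO UT, at 860.8, 852.8 and 842.0 CPM in WT LPS and at 849.8, 888.5 and 881.5 CPM in KO LPS. Its estimated rise was the largest of the 10 genes in both genotypes, at 9.10-fold in WT (log2 fold change 3.19, SE 0.05, adjusted p = 2.30e-22) and 12.1-fold in KO (3.59, SE 0.05, adjusted p = 4.31e-23). The KO libraries of Tap1 lay below those of WT in UT, and after LPS the ranges overlapped. Tap2 ran from 42.2 to 50.5 CPM in WT UT, 41.0 to 44.9 in KO UT, 305.0 to 307.2 in WT LPS and 298.7 to 316.5 in KO LPS, and rose 6.47-fold in WT (2.69, SE 0.07) and 7.10-fold in KO (2.83, SE 0.07). Tap1 and Psmb9 overlap on opposite strands over 212 bases of exon, and since the strand setting of the counting was not stated, reads from that stretch cannot be assigned with certainty.

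Tapbp encodes tapasin, the bridge between the transporter and the heavy chain. Its libraries were at 311.7, 289.0 and 289.9 CPM in WT UT, at 263.1, 258.1 and 250.8 CPM in KO UT, at 1034, 1028 and 1022 CPM in WT LPS and at 1045, 1084 and 1108 CPM in KO LPS. As for Tap1, the KO libraries lay below WT when untreated, and after LPS they lay above them. The rise was 3.46-fold in WT (log2 fold change 1.79, SE 0.05, adjusted p = 2.12e-18) and 4.19-fold in KO (2.07, SE 0.05, adjusted p = 1.93e-19). Of the 100-base stretches of Tapbp transcripts, 14.8% also occur in transcripts of other genes, the highest share of the 10, and the gene shares 149 bases of exon with Zbtb22 on the same strand.

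Psmb8 and Psmb9 encode catalytic subunits of the immunoproteasome, which takes the place of the constitutive proteasome in stimulated cells. Psmb8 was at 171.6, 165.8 and 164.2 CPM in WT UT, at 200.5, 200.7 and 196.5 CPM in KO UT, at 757.4, 915.7 and 908.0 CPM in WT LPS and at 880.4, 916.1 and 866.9 CPM in KO LPS. The lowest WT LPS value belonged to replicate 1. Psmb8 rose 5.14-fold in WT (log2 fold change 2.36, SE 0.06, adjusted p = 1.23e-18) and 4.46-fold in KO (2.16, SE 0.06, adjusted p = 5.34e-18). Psmb9 ranged from 51.3 to 52.6 CPM in WT UT, 52.2 to 61.4 in KO UT, 239.3 to 294.2 in WT LPS and 249.3 to 287.1 in KO LPS, and rose 5.25-fold in WT (2.39, SE 0.08) and 4.74-fold in KO (2.25, SE 0.08).

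Nlrc5 was at 106.5, 108.1 and 110.6 CPM in WT UT, at 70.8, 76.1 and 72.3 CPM in KO UT, at 951.1, 940.9 and 954.0 CPM in WT LPS and at 767.4, 783.8 and 803.4 CPM in KO LPS. The KO libraries lay below the WT libraries in both treatments, without overlap. The transactivator rose 8.75-fold in WT (log2 fold change 3.13, SE 0.05, adjusted p = 3.11e-22) and 10.7-fold in KO (3.43, SE 0.05, adjusted p = 9.53e-23).

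**Figure D2:**
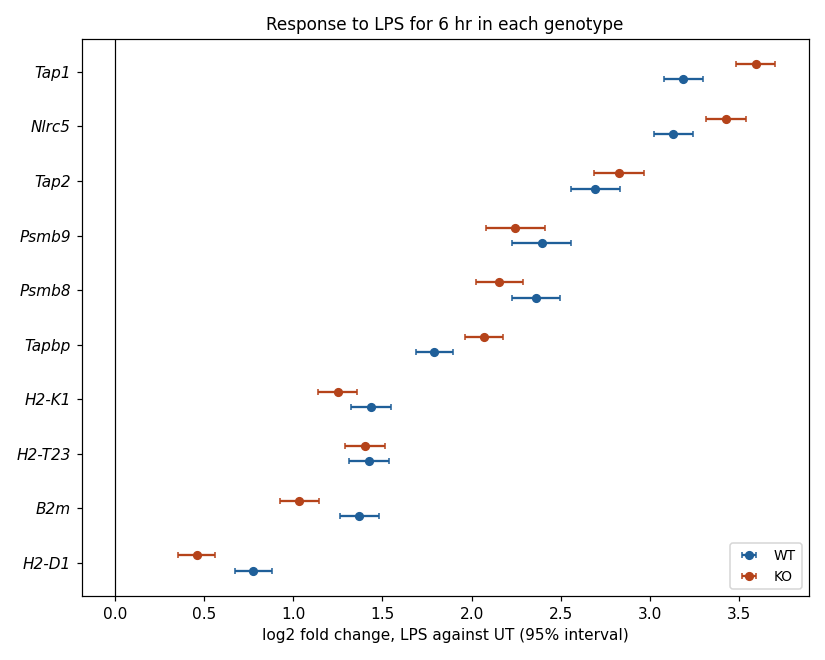
Log2 fold change of each gene in LPS against UT libraries, with 95% intervals, for WT and for KO BMDMs (linear axis). Tap1 (3.19 in WT and 3.59 in KO) and Nlrc5 (3.13 and 3.43) stand highest and H2-D1 (0.78 and 0.46) lowest.

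To compare levels between genes, CPM were divided by the summed exon length in kb. In WT UT the order was B2m at 2680.3 ± 52.0 CPM per kb, H2-D1 at 906.1 ± 8.06, H2-K1 at 359.6 ± 2.28, H2-T23 at 120.1 ± 3.40, Tapbp at 81.8 ± 3.54, Psmb8 at 49.5 ± 1.15, Tap1 at 17.1 ± 0.273, Psmb9 at 14.2 ± 0.175, Nlrc5 at 12.8 ± 0.241 and Tap2 at 12.5 ± 1.18 (SD, n = 3). The last pair did not differ beyond its spread. In KO UT, Psmb9 stood at 15.6 ± 1.26 CPM per kb, above Tap1 at 13.2 ± 0.419, and Nlrc5 came last at 8.60 ± 0.323. After LPS in WT, B2m (6927 ± 617 CPM per kb), H2-D1 (1553 ± 90.1) and H2-K1 (974.2 ± 65.1) still led, Tap1 stood at 155.6 ± 1.72, and Nlrc5 (111.7 ± 0.810) now stood above Psmb9 (74.6 ± 8.06). There Tap2, at 81.0 ± 0.289, and Psmb9 did not differ beyond their spread. These lengths count each annotated exon base of a gene, and the isoforms used in these cells were not determined.

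The second question was whether the HSS9 KO altered the pathway in untreated BMDMs. Here the genes parted into groups that moved in opposite directions. B2m was 1.28-fold higher in KO (log2 fold change 0.36, SE 0.05, 95% interval 0.25 to 0.47, adjusted p = 2.21e-05), H2-D1 was higher by 0.28 (SE 0.05, interval 0.17 to 0.38, adjusted p = 2.48e-04) and Psmb8 by 0.25 (SE 0.06, interval 0.12 to 0.38, adjusted p = 0.00427). Nlrc5 fell by 0.57 on the log2 scale (SE 0.05, interval -0.67 to -0.47, adjusted p = 5.54e-08), Tap1 by 0.37 (SE 0.05, interval -0.47 to -0.27, adjusted p = 1.06e-05) and Tapbp by 0.21 (SE 0.05, interval -0.31 to -0.10, adjusted p = 0.00350). Thus 3 of 10 passed as higher, against 14.1% of all genes, and 3 of 10 as lower, against 9.69%, and 0 had an absolute log2 fold change above 1, against 1.82%. The median of the 10 was 0.07 and that of all genes 0.00. With RLE scaling, another way to set library sizes, the shares over all genes turned to 11.1% higher and 17.7% lower, and those of the members to 3 and 4 of 10. The libraries of the genotypes did not overlap for 7 of 10 members, against 40.8% of all genes.

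The other members did not pass in untreated cells. H2-K1 differed by 0.14 (interval 0.03 to 0.25, adjusted p = 0.0607) with its KO libraries above its WT libraries, Psmb9 by 0.14 (interval -0.02 to 0.30, adjusted p = 0.219), Tap2 by -0.14 (interval -0.28 to -0.00, adjusted p = 0.133) and H2-T23 by -0.00 (interval -0.11 to 0.11, adjusted p = 0.982). H2-K1 passed in 4 of 24 alternative analyses, for example at an adjusted p of 0.00981 without WT LPS replicate 1 and 0.0355 without WT LPS replicate 3. Tap2 passed as lower in 4 of 24, among them DESeq2 (-0.21, adjusted p = 0.00630) and the fit without WT UT replicate 2 (-0.22, adjusted p = 0.0220).

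**Figure D3:**
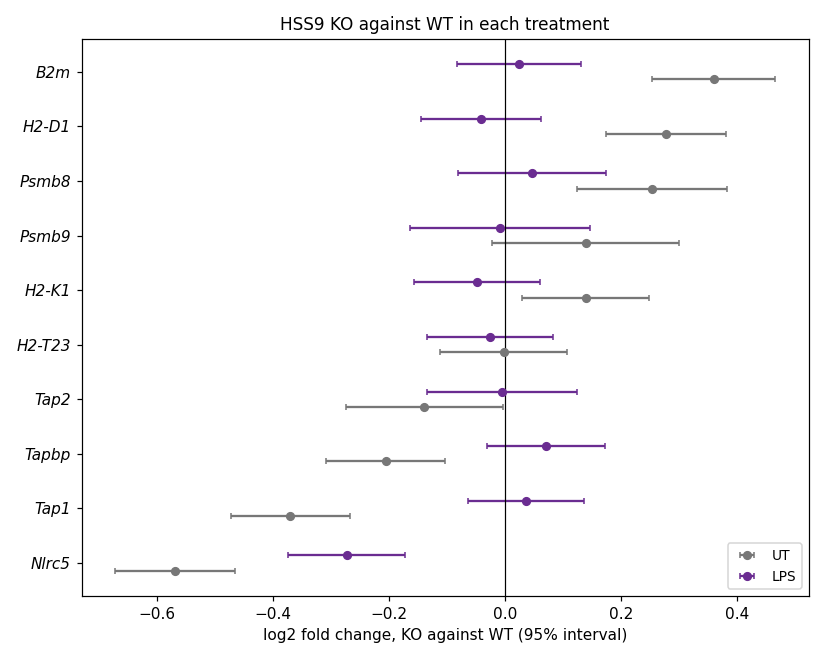
Log2 fold change of each gene in KO against WT libraries, with 95% intervals, in UT and in LPS BMDMs (linear axis). In UT the values run from 0.36 for B2m to -0.57 for Nlrc5, and after LPS the interval of Nlrc5 (-0.37 to -0.17) is the one that does not reach 0.

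Several measured properties of the libraries moved with genotype in untreated cells. Short noncoding RNAs (snRNA, snoRNA, scaRNA, rRNA, ribozyme and miscellaneous RNA genes) held 3.00% to 3.25% of counts in WT UT and 6.64% to 7.98% in KO UT, and these ranges did not overlap. Over all protein-coding genes, put into 5 classes of nearly equal size by exon length, the median log2 difference between KO and WT went from 0.26 in the shortest class (165 to 2486 bp) through 0.05, -0.02 and -0.07 to -0.10 in the longest class (7608 to 123179 bp). After LPS the same medians ran between -0.00 and 0.05. Among the members, B2m (860 bp) is in the shortest class and differed by 0.36. H2-K1, H2-D1, H2-T23, Tapbp, Psmb8 and Psmb9 (2579 to 3660 bp) share the next class, whose median was 0.05, and spread from -0.21 for Tapbp to 0.28 for H2-D1. Tap2 (3781 bp) at -0.14, Tap1 (5476 bp) at -0.37 and Nlrc5 (8493 bp) at -0.57 lay below the medians of their classes, which were -0.02, -0.07 and -0.10.

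When the trend with exon length was removed from each library, Nlrc5 still differed by -0.50 (adjusted p = 7.58e-08), Tap1 by -0.35 (adjusted p = 6.60e-06), Tapbp by -0.25 (adjusted p = 1.95e-04), Psmb8 by 0.19 (adjusted p = 0.0187) and H2-D1 by 0.16 (adjusted p = 0.00594), while B2m differed by 0.06 (adjusted p = 0.286). With the short RNA share as a covariate, Nlrc5 (-0.56), Tap1 (-0.37) and Psmb9 (-0.44, from 0.14, adjusted p = 0.0461) passed as lower, 3 of 10 against 1.71% of all genes, and B2m (0.01, adjusted p = 0.974), H2-D1 (0.05, adjusted p = 0.840), Psmb8 (-0.16, adjusted p = 0.468) and Tapbp (-0.23, adjusted p = 0.204) did not. Nlrc5 and Tap1 passed as lower in all 24 alternatives. The share of short RNA separates the untreated genotypes, so its effect and that of genotype cannot be told apart within these libraries.

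**Figure D4:**
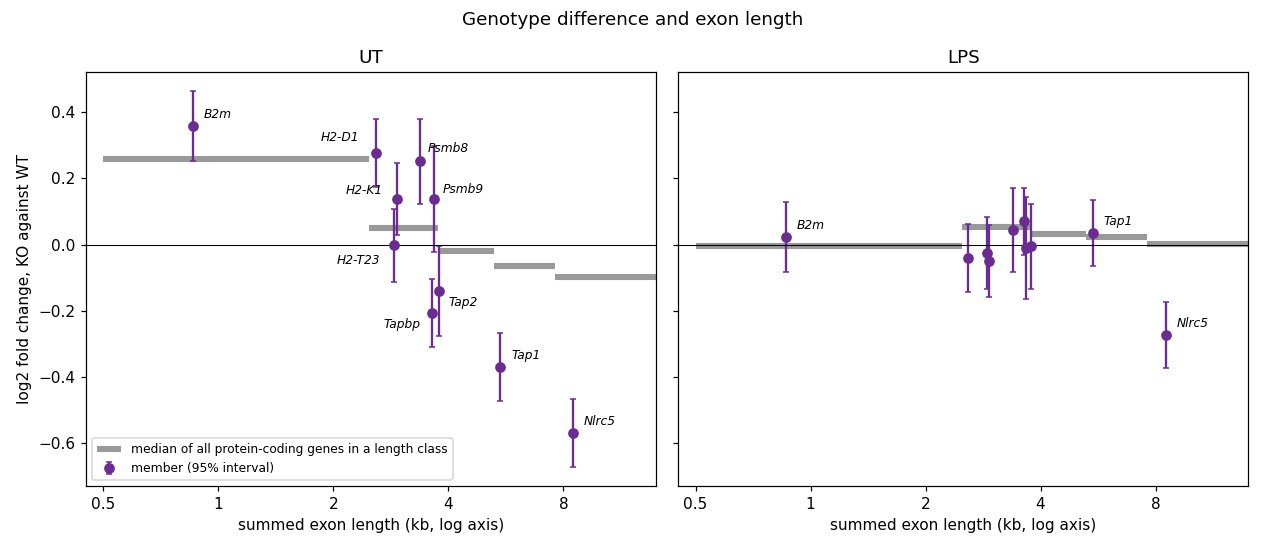
Log2 fold change of each gene in KO against WT, with 95% intervals, against summed exon length in kb (log axis), in UT and in LPS BMDMs, with grey bars for the median of all protein-coding genes in each of 5 length classes, drawn from 0.5 to 14 kb. In UT the short B2m lies at 0.36 and the long Nlrc5 at -0.57, and after LPS the values other than that of Nlrc5 lie between -0.05 and 0.07.

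Markers of other cells were also measured. The 7 neutrophil markers summed to 18.6 to 19.9 CPM in WT UT and 40.7 to 46.2 CPM in KO UT, with Ly6g at 3 counts or fewer in each untreated library, and the 8 macrophage markers to 28908 to 29983 and 33310.0 to 34417 CPM. In KO UT, 4 of the 5 neutrophil markers tested and 2 of 5 stromal markers passed as higher. Of the 8 macrophage markers 5 passed as higher and 1 as lower, against 14.1% and 9.69% of all genes. B cell markers reached at most 1.79 CPM and T and NK cell markers at most 0.549 CPM in any library, with Pax5, Cd3e and Trac at 3 counts or fewer in every group. The 5 dendritic cell markers summed to 1.19 to 3.04 CPM, and the 5 stromal markers to 3.77 to 4.49 in WT UT, 4.11 to 5.67 in KO UT, 1.89 to 4.29 in WT LPS and 6.91 to 8.42 in KO LPS. The part of these cells in the differences of B2m, H2-D1, Psmb8, Nlrc5, Tap1 and Tapbp was not tested.

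The third question was whether the genotypes differed once LPS had been given. Nlrc5 was lower in KO LPS than in WT LPS by a log2 fold change of -0.27 (SE 0.05, interval -0.37 to -0.17, adjusted p = 6.49e-04), and it passed in all 24 alternatives at values from -0.31 to -0.25. No other member passed, so 1 of 10 was lower, against 6.54% of all genes, 0 of 10 were higher, against 7.78%, and 0 were past the fold minimum, against 1.25%. The other differences ran from -0.05 for H2-K1 to 0.07 for Tapbp, and their 95% intervals lay between -0.16 and 0.17. For the heavy chains the intervals were -0.16 to 0.06 (H2-K1), -0.14 to 0.06 (H2-D1) and -0.14 to 0.08 (H2-T23), and for Tap1 -0.06 to 0.14. Tapbp was the one gene of these whose libraries did not overlap between genotypes, at 1022 to 1034 CPM in WT LPS and 1045 to 1108 CPM in KO LPS (adjusted p = 0.375), and with Nlrc5 this held for 2 of 10, against 29.1% of all genes. Neutrophil markers summed to 50.4 to 79.4 CPM in WT LPS and 67.2 to 76.7 in KO LPS. Macrophage markers summed to 27940 to 29482 and 30233 to 32099 CPM, without overlap, with 5 of 8 higher in KO LPS, against 7.78% of all genes. Higher there were also 4 of the 5 stromal markers, which had few counts, for example Col3a1 with 6 to 31 in WT LPS and 48 to 51 in KO LPS. The part of these markers in the difference of Nlrc5 was not tested. Short RNA held 4.04% to 6.89% and 3.23% to 3.43% of counts. With that share as a covariate, B2m (0.21), Psmb8 (0.27) and Psmb9 (0.30) were also higher in KO LPS (3 of 10, against 4.34% of all genes), and with exon length offsets B2m was (0.14).

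The size of the LPS response itself was then compared between genotypes through the interaction of genotype and treatment. The response was larger in KO for Tap1 by 0.41 on the log2 scale (SE 0.07, adjusted p = 3.25e-04), for Nlrc5 by 0.30 (SE 0.07, adjusted p = 0.00498) and for Tapbp by 0.28 (SE 0.07, adjusted p = 0.00831). It was smaller in KO for B2m, at -0.34 (SE 0.07, adjusted p = 0.00269), and for H2-D1, at -0.32 (SE 0.07, adjusted p = 0.00317). Of all genes, 7.32% passed as larger, 9.50% as smaller and 2.16% with an absolute value above 1, which no member had. With RLE scaling 12.8% passed as larger and 7.33% as smaller, and 3 and 2 members did. With the short RNA share as a covariate none of these 5 genes passed. Tap1 (0.40), Tapbp (0.32) and Nlrc5 (0.28) were then of similar size as before, and B2m (0.20) and H2-D1 (0.03) changed sign. With exon length offsets the interaction of B2m turned to 0.08 and did not pass while the other 4 did. Each of these genes differed between genotypes in untreated cells in the direction opposite to its interaction, and the comparisons share the untreated libraries. H2-K1 (-0.19, adjusted p = 0.0904) and Psmb8 (-0.21, adjusted p = 0.112) did not pass with all 12 libraries, and without WT LPS replicate 1 both did, at -0.24 (adjusted p = 0.00403) and -0.29 (adjusted p = 9.08e-04). Psmb9, Tap2 and H2-T23 had interactions of -0.15, 0.13 and -0.02 (adjusted p of 0.389, 0.349 and 0.872).

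The immunoproteasome subunits were set against the constitutive subunits that they replace, as ratios of counts per kb within a library, which do not depend on library scaling. Psmb8 over Psmb5 was 1.10 to 1.16 in WT UT, 0.942 to 1.00 in KO UT, 2.51 to 2.62 in WT LPS and 2.57 to 2.77 in KO LPS. Psmb9 over Psmb6 was 0.175 to 0.181, 0.115 to 0.123, 0.306 to 0.357 and 0.341 to 0.381 in the same order. Both ratios were thus lower in each untreated KO library than in each untreated WT library, and the LPS libraries of the genotypes overlapped. Psmb10 over Psmb7 was 2.40 to 2.62 in WT UT, 2.25 to 2.69 in KO UT, 8.88 to 10.9 in WT LPS and 8.35 to 9.37 in KO LPS, with overlap of the genotypes in each treatment. The constitutive subunits Psmb6, Psmb5 and Psmb7 were themselves higher in untreated KO cells, by 0.72, 0.47 and 0.24 on the log2 scale (adjusted p of 2.90e-06, 6.85e-06 and 0.00245). These were 3 of 3, against 14.1% of all genes. Psmb8 (0.25) and Psmb9 (0.14, not passed) were not lower in KO there. Exon lengths differ between partners, and 2 of the 3 constitutive subunits belong to the shortest length class, whose median was 0.26. The class of Psmb8 and Psmb9 had a median of 0.05. The part of exon length in the ratios was not tested. Of the 100-base stretches of Psmb5 transcripts, 22.2% also occur in transcripts of other genes, and of those of Psmb8 and Psmb7 8.05% and 6.38% do, so the counts behind these ratios are uncertain to that extent. Psmb9 shares 212 bases of exon with Tap1 on the opposite strand, so its counts are uncertain as well.

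**Figure D5:**
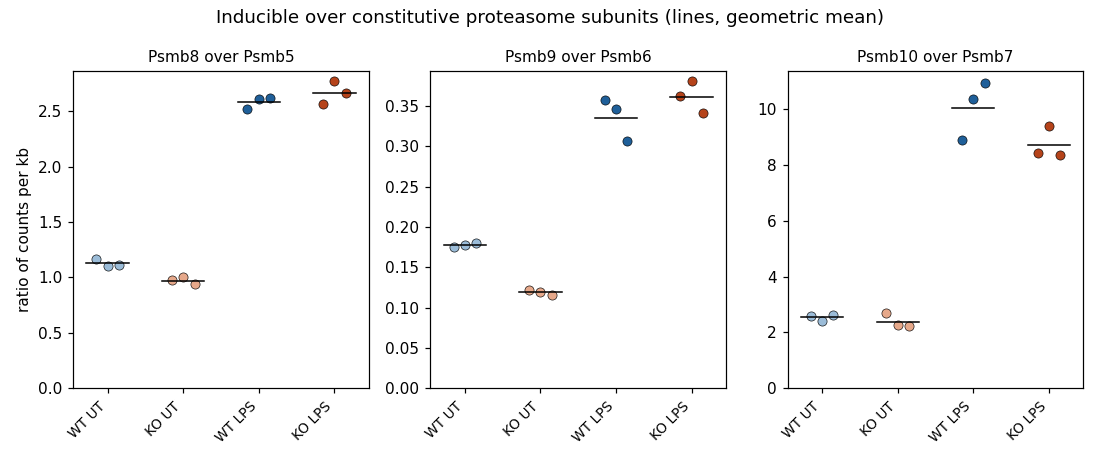
Ratio of counts per kb of exon for Psmb8 over Psmb5, Psmb9 over Psmb6 and Psmb10 over Psmb7 in each library of the 4 groups (linear axes from 0), with a line at the geometric mean. In UT the KO libraries lie below WT for Psmb8 over Psmb5 (0.942 to 1.00 against 1.10 to 1.16) and for Psmb9 over Psmb6 (0.115 to 0.123 against 0.175 to 0.181).

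Other genes of the pathway were read from lists by role. Counts for these lists come from the main fit. They were not made again with RLE scaling, the short RNA covariate or exon length offsets. The RLE shares in brackets therefore have no list count to go with them. Of 18 further class I and class I-like genes, 12 had enough counts to be tested. After LPS 8 were higher and 3 lower in each genotype, against 38.0% and 35.3% of all genes in WT and 35.1% and 37.7% in KO, among them H2-M2 (log2 fold change 4.43 in WT and 3.79 in KO), H2-T10 (3.92 and 3.82), H2-Q7 (3.46 and 3.93) and H2-Q6 (2.99 and 3.69). In untreated cells 5 were lower in KO, H2-Q6 by 0.99, H2-Q7 by 0.62, H2-T24 by 0.51 and H2-Q4 by 0.35 among them, and 1 was higher, against 9.69% of all genes lower and 14.1% higher (17.7% and 11.1% with RLE scaling). After LPS 3 were lower in KO, against 6.54% of all genes, namely H2-Q6 (-0.29), H2-T10 (-0.26) and H2-Q4 (-0.17). The Q and T genes are close copies, with 14.1% of the 100-base stretches of H2-Q4 and 28.1% of those of H2-T10 found in transcripts of other genes, so their counts are uncertain.

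Most of the remaining proteasome genes were also higher after LPS. The 4 inducible partners rose in both genotypes, with Psme2, a subunit of the PA28 activator, at 3.24 in WT and 2.84 in KO and Psmb10, the remaining inducible catalytic subunit, at 3.04 and 2.77. Of 13 other core and activator subunits, 13 rose after LPS in WT and 12 in KO, against 38.0% of all genes in WT and 35.1% in KO, led by Psma6 (2.82 and 2.81) and Psma5 (2.26 and 1.87). In untreated cells 10 of these 13 were higher in KO and 1 lower, with Psmb3 at 0.61, Psmb4 at 0.52 and Psmb2 at 0.51, against 14.1% of all genes higher and 9.69% lower (11.1% and 17.7% with RLE scaling). Of the 13, 6 belong to the shortest length class, whose median was 0.26. After LPS 1 was higher, Psma6 at 0.27, against 7.78% of all genes. The interaction was negative for 8 of the 13, against 9.50% of all genes (7.33% with RLE scaling), and for Pomp (-0.56), the assembly factor, and Psme2 (-0.40) among the inducible partners.

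The 9 peptide loading and trimming partners had median LPS responses of 0.06 in WT and 0.24 in KO. Of these, 4 rose and 3 fell after LPS in WT, and 5 rose and 1 fell in KO, against 38.0% and 35.3% of all genes in WT and 35.1% and 37.7% in KO. Tapbpl, the tapasin-like editor, rose by 2.17 and 2.46, and Erap1, which trims peptides in the endoplasmic reticulum, by 0.81 and 1.07. In untreated cells 4 of the 9 were lower in KO, Tapbpl (-0.32), Lnpep (-0.24), Pdia3 (-0.22) and Uggt1 (-0.19), and 0 were higher, against 9.69% of all genes lower and 14.1% higher (17.7% and 11.1% with RLE scaling, under which this list was not counted). Of the 9, 1 belongs to the shortest length class, whose median was 0.26, and the median of the longest class was -0.10. After LPS Uggt1 was higher in KO by 0.26, against 7.78% of all genes higher.

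Of 17 transcription factors known to act at class I promoters, 11 rose and 3 fell after LPS in WT and 12 rose and 2 fell in KO, beside 38.0% and 35.3% of all genes in WT and 35.1% and 37.7% in KO. Stat2, which carries interferon signals, rose by 2.43 in WT and by 3.02 in KO, and Nfkb1 by 2.72 and 2.54. Irf1 rose by 2.26 in KO, from a mean of 77.9 to 372.3 CPM, and its mean in WT was 89.7 CPM in UT and 372.9 CPM after LPS. In untreated KO cells 7 of the 17 were lower and 0 higher, among them Stat2 at -0.74, the NF-Y subunit gene Nfya at -0.29 and Rfx5 at -0.28, against 9.69% of all genes lower and 14.1% higher (17.7% and 11.1% with RLE scaling, under which this list was not counted). Of the 17, 1 belongs to the shortest length class, whose median was 0.26, and the median of the longest class was -0.10. After LPS 2 were higher in KO, among them Nfyc (0.26), and 1 was lower, Stat2 (-0.15), against 7.78% and 6.54% of all genes. The interaction was positive for 4 factors, against 7.32% of all genes (12.8% with RLE scaling), among them Stat2 (0.59), Nfya (0.41) and Irf9 (0.24).

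Likeness of pattern was measured as the root-mean-square distance between centred log2 CPM over the 12 libraries. Outside the pathway, Ogfr (0.0618), Gm16675 (0.0705), Gys1 (0.0708), Arid5b (0.0735) and Slc12a4 (0.0784) lay nearest to the mean of the 10 members among 9510 genes. Among the members, Tapbp (0.105), Psmb8 (0.147) and Psmb9 (0.155) lay closest to that mean and H2-D1 farthest (0.724). Among the genes nearest to Nlrc5 of 9576 were Slc25a37 (0.0742) and Stx11 (0.0810), and the nearest member was Tap1 (0.148).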

How the data were processed

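Total RNA was measured in 12 libraries, 3 for each genotype and treatment, grouped by the labels. The authors prepared libraries with a stranded globin-depletion kit, used HISAT2 2.1.0 to align read pairs to GRCm38 and featureCounts 2.0.0 to count them per gene, and the deposited values are raw counts per gene. How featureCounts treated strand and multi-mapping reads, and with which annotation release, is not given in the sources used here. Identifiers, with versions removed, were matched to a GENCODE annotation of GRCm38 (48144 of 48526), and 22406 genes had 0 counts in every library.

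After TMM scaling, counts were compared by the edgeR 4.0.16 quasi-likelihood F test (limma 3.58.1, R 4.3.3). filterByExpr (minimum count 10, minimum total count 15) kept 15523 genes with 99.96% of counts. A single model of the 4 group means, with no covariate, was fitted to all 12 libraries, and the Benjamini-Hochberg adjustment covered every gene kept. A gene passed at an adjusted p below 0.05, and was called with an absolute log2 fold change above 1 as well, as in the study. Intervals (95%) come from the same fit, and CPM are scaled by TMM. The common biological coefficient of variation was 0.0712. Reads carried no molecular identifiers, so a count is not a number of independent molecules.

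The members, the other gene lists, the marker lists and the rule for named genes were chosen with earlier results of these data known, and the exact motif letters after the promoters had been seen. Named genes were the 10 members, Tnf, the constitutive subunits Psmb5, Psmb6 and Psmb7 with Psmb10, up to 4 genes per list and comparison with the largest change among those that passed at a mean CPM of at least 1, and the genes nearest in pattern at a mean CPM of at least 5. Some genes that this rule names are not reported here. Gene lists are described by counts and medians, without a set test. The labels give each library a batch number equal to its replicate number, which pairs libraries across groups. Deviations from group means of libraries with one number were correlated over genes, and r ran from -0.0631 to 0.0373 over 18 pairs, with 0 above 0.1. Replicates differed by at least 3.73 in chi-square per degree of freedom, more than counting noise, and no library was treated as a repeat deposit of another. Alternatives were DESeq2 1.42.0, upper-quartile or RLE scaling, TMM without the 10 most-counted genes, no filter and a mean CPM filter, protein-coding genes only, the compared groups only, a replicate block, the short RNA share as a covariate and each library left out. Offsets for exon length, with and without the block, were chosen after seeing the data. Plots used matplotlib 3.10.9 (Python 3.11.15).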

Additional observations from a re-analysis of the deposited data

Results flagged for a closer look

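The LPS response differed between KO and WT BMDMs for 5 of the 10 genes, by the edgeR test of the interaction of genotype and treatment, 3 larger in KO, against 7.32% of all genes, and 2 smaller, against 9.50%. It was larger in KO for Tap1 (log2 difference 0.41, 95% interval 0.26 to 0.55), Nlrc5 (0.30, 0.15 to 0.44) and Tapbp (0.28, 0.13 to 0.42), and smaller in KO for B2m (-0.34, -0.49 to -0.18) and H2-D1 (-0.32, -0.46 to -0.17). With the short RNA share as a covariate, where 0.941% of all genes passed as larger and 1.71% as smaller, 0 of these 5 passed, with Tap1 at 0.40 (adjusted p = 0.184), Tapbp at 0.32 (0.331) and Nlrc5 at 0.28 (0.424), while H2-D1 (0.032) and B2m (0.20) changed sign, and with exon length offsets B2m turned to 0.08 (adjusted p = 0.301) while H2-D1 (-0.21), Tap1 (0.35), Tapbp (0.30) and Nlrc5 (0.20) passed. The share of short RNA was higher in KO than in WT without LPS (6.64% to 7.98% against 3.00% to 3.25%) and lower after LPS (3.23% to 3.43% against 4.04% to 6.89%), without overlap in either treatment. The trend with exon length differed between the untreated genotypes, and the part of both in these differences was not tested further.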

How the results depend on the processing

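The LPS response of each member kept its direction and passed in every alternative, in 480 of 480 values. Medians of the members moved from 2.08 in WT to 1.90 with upper-quartile scaling, 2.16 with protein-coding genes only, 1.90 with the short RNA share as covariate and 2.14 with exon length offsets (2.14 with the block), and from 2.11 in KO to 1.93, 2.31 with the covariate and 2.21 with the offsets (2.21 with the block). For KO against WT without LPS, the median of 0.07 became -0.0052 with DESeq2 and with RLE scaling, -0.23 with the short RNA covariate and -0.018 with exon length offsets, with or without the block. With that covariate 0 members were higher, against 4.28% of all genes, and 3 lower (Tap1, Psmb9 and Nlrc5), against 1.71%. Psmb8 (-0.16), Psmb9 (-0.44, adjusted p = 0.0461) and H2-K1 (-0.08) changed sign. After LPS 3 members were higher with the covariate, against 4.34% of all genes (median 0.082), Psmb9 turning from -0.01 to 0.30 (adjusted p = 0.0156), and 1 with exon length offsets, with or without the block, against 8.57% of all genes without it. For the interaction, the median of -0.09 became -0.0058 with DESeq2 and with RLE scaling and 0.30 with the covariate. With it 1 member, Psmb9 (0.74, adjusted p = 0.0429), passed as larger and 0 as smaller, against 0.941% and 1.71% of all genes. Psmb9, H2-D1 (0.032) and B2m (0.20) changed sign. So did Psmb8 (0.43), H2-T23 (0.31) and H2-K1 (0.15), which passed neither in the main fit nor with the covariate. Exon length offsets left 1 smaller, against 6.65% of all genes without the block, with or without the block, with medians of 0.067 and 0.067 and B2m at 0.082 and 0.082. The cause of these shifts was not tested.

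Leaving out each library in turn gave 3 to 4 members higher and 3 to 4 lower in KO without LPS, against 11.2% to 15.1% and 6.63% to 11.98% of all genes, and 2 to 4 members with a smaller response in KO, against 7.03% to 11.6%, with 4 members and 11.6% without WT LPS replicate 1. The replicate block alone changed no call of a member (50 of 50 values), with B2m without LPS at 0.36 (adjusted p = 1.33e-04) and Nlrc5 after LPS at -0.27 (adjusted p = 0.00290). With the block and exon length offsets together, the interaction of Nlrc5 was 0.20 and did not pass (adjusted p = 0.0637). The members had at least 1463 counts in every library.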

Other observations

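Within the WT LPS group, replicate 1 held the lowest value for 7 of the 10 genes, among them H2-K1, H2-D1, H2-T23, B2m, Psmb8 and Psmb9, and it also had the lowest share of short RNA of its group (4.04%, against 5.36% and 6.89%). In KO LPS, replicate 2 held the highest value for 8 of the 10 genes.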
